A study of Mus musculus with 4 samples.

Results

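Distal accessible regions that were called in every library of day 4 embryoid bodies (EBs) but stood lower in both CTCF-K20R libraries were characterized. The peaks of the 4 libraries were merged into 80380 regions, of which 38527 held a peak in all 4 libraries. A region counted as distal when its strongest summit lay more than 1000 bp from the transcription start site (TSS) of every protein-coding transcript, which left 24318 autosomal regions. Within each library, the −log10 p of the region's highest peak was turned into a rank among these regions, from 0 for the lowest to 100 for the highest. A region was called weakened when both K20R ranks lay below both WT ranks and the mean K20R rank lay at least 20 points below the mean WT rank. A stretch of chromosome 14 (chr14:44988432-66176004) was left out, in which both K20R ranks lay below both WT ranks in 112 of 157 regions. Of the 24161 regions that remained, 3393 were weakened, which is 14%. The mirror rule called 3374 regions strengthened (14%), and 17394 were in neither class.

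Chromatin accessibility was read by ATAC-seq, in which a transposase inserts sequencing adaptors into open DNA, in 2 WT and 2 K20R libraries. All came from E14Tg2A mouse embryonic stem cells kept on inactivated mouse embryo fibroblasts with leukemia inhibitory factor, CHIR99021 and PD0325901, and then differentiated in hanging drops with serum and without that factor for 4 days. In K20R cells, lysine 20 of CTCF was replaced by arginine with CRISPR/Cas9 in targeted colonies. The methods call the 2 libraries of a genotype biological replicates, but whether they come from separate colonies or cultures is not given in the sources used here. The lists held 59783 and 66703 peaks in WT and 51823 and 55832 peaks in K20R. Among the promoters of marker genes, all 7 of early mesoderm, all 4 of pluripotency, 2 of 2 of endoderm and 2 of 2 of neuroectoderm had a peak in every library, as had 3 of 5 of fibroblasts, the cells of the feeder layer. The strength of these promoter peaks, as a percentile among all peaks of the library, was not the same in both genotypes for every gene. It was 83.1 and 82.8 in WT against 66.7 and 65.6 in K20R for T and 96.7 and 97.1 against 81.1 and 78.9 for Foxa2. For Sox17 it was 51.8 and 31.7 against 1.77 and 28.4, but for Mesp1 it was 43.5 and 43.4 against 67.3 and 72.4.

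Distal accessible regions include most enhancers, which are bound by transcription factors and act on promoters over long distances, and the sites at which CTCF holds chromatin loops. In an embryoid body of this age, cells leave pluripotency and pass through a primitive streak-like state. Their enhancers are known to be bound by T-box factors such as Eomes and Brachyury, by GATA and forkhead factors, and by the TCF and LEF factors of Wnt signalling.

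A set of 10 weakened regions is shown by sequence, because the comparisons below turn on short consensus sequences in them. Each sequence runs from 100 bp before to 100 bp after the strongest summit on the plus strand of mm10, as RefSeq gives it, with the consensus in capitals. The regions are called by the gene of the nearest protein-coding TSS, which does not assign them to that gene. Lrig3 (chr10:125785801-125786001) had the largest drop of all and holds a FOX consensus. The choice of the sequences did not cover every chromosome, so larger drops can exist outside it. Within it, Mef2d (chr3:88197902-88198102), Herc1 (chr9:66294996-66295196) and Fignl1 (chr11:11844384-11844584) had the largest drops of the regions with a T-box, a GATA and a CTCF consensus. The others are regions with large drops, under the same limit, near genes of the developmental lists that hold one of these sequences. They are a GATA match near Actc1 (chr2:114057529-114057729) and near Msx1 (chr5:37895545-37895745), a FOX match near Cdh5 (chr8:104061342-104061542), near Foxa2 (chr2:147906499-147906699) and near Wnt11 (chr7:98798068-98798268), and a TCF-LEF match near Tbx3 (chr5:119613559-119613759).
Lrig3: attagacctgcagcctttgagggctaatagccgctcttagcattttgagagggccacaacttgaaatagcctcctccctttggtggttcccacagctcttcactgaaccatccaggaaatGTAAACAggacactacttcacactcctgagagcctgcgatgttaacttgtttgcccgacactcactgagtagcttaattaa
Mef2d: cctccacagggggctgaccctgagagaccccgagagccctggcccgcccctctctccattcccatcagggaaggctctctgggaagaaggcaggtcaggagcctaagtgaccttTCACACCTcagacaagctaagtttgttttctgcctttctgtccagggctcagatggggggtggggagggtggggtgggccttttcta
Herc1: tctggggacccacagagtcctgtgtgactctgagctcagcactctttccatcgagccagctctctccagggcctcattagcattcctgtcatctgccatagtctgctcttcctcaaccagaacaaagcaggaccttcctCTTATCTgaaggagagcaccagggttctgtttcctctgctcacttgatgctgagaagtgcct
Fignl1: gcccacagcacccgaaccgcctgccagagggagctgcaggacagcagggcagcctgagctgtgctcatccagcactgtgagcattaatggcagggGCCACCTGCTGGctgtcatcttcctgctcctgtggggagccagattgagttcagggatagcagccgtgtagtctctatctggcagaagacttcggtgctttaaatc
Actc1: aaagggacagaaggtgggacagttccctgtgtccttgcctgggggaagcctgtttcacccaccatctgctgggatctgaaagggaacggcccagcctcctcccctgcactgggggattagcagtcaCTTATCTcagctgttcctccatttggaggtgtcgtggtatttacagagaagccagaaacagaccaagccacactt
Cdh5: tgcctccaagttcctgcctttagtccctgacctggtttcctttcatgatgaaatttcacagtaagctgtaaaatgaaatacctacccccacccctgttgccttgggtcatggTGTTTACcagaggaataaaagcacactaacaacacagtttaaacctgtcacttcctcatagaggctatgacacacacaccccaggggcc
Foxa2: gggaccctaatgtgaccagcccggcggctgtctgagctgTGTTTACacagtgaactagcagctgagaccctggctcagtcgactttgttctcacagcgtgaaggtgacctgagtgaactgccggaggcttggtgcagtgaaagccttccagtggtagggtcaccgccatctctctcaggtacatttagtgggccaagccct
Tbx3: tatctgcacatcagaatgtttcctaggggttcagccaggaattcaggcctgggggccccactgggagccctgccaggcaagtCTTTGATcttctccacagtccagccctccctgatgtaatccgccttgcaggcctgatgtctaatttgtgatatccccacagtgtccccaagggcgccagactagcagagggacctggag
Msx1: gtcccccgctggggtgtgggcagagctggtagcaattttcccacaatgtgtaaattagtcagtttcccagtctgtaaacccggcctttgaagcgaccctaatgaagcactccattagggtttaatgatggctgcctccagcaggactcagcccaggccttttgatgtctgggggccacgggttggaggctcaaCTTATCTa
Wnt11: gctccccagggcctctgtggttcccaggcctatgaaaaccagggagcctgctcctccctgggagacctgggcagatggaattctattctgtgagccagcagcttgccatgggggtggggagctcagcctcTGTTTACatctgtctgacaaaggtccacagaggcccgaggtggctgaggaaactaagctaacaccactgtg

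The weakened regions were of middle to high strength in WT and of low strength in K20R. Their median rank was 67.1 and 66.9 in the WT libraries and 23.9 and 24.04 in the K20R libraries. Since these ranks chose the regions, the values describe them and carry no test. The drop, which is the mean WT rank minus the mean K20R rank, had a median of 33.0 points, with an interquartile range of 25.5 to 45.6 and a highest value of 94.9. It reached 60 points or more in 369 regions, 80 or more in 45 and 90 or more in 9. For comparison, the 2 libraries of one genotype differed by a median of 7.02 points in WT and 8.72 points in K20R over the same regions. In bulk samples of this kind, fewer cells with an open site and less accessibility per cell cannot be told apart.

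The wider set shows how the threshold cut. Both K20R ranks lay below both WT ranks in 6509 regions (26.9%) and above both in 7677 regions (31.8%). Just inside the threshold stood a region in an intron near Pou2f3 (ranks of 29.7 and 45.2 in WT, 26.1 and 8.77 in K20R) and one near Rnf144a (64.3 and 50.5 in WT, but 28.8 and 46.0 in K20R). Just outside stood a region near Aplnr, the gene of the apelin receptor (87.8 and 93.8 in WT, but 62.8 and 78.8 in K20R), and one near 1810013L24Rik (89.8 and 82.1 in WT, but 75.9 and 56.0 in K20R). In the 2 members just inside the threshold, the 2 libraries of each genotype lay more than 10 points apart.

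The fold enrichment at the summit, which is the pileup over the local background, had the same course as the rank. Over the weakened regions, its median was 6.05 and 8.08 in the WT libraries and 3.58 and 4.91 in the K20R libraries. Over the regions in neither class, it was 5.05 and 6.82 in WT against 4.85 and 6.69 in K20R, so the second replicate of each genotype read higher throughout. When each library was set to its own median, the weakened regions differed by a median log2 of -0.59 between K20R and WT, which is a 1.501-fold higher enrichment in WT. The difference was below 0 in 3379 of 3393 regions, beside 45.4% of the regions in neither class and 0.237% of the strengthened ones. Peaks were also narrower in K20R, at a median of 515 and 635 bp against 767 and 831 bp in WT. In 623 weakened regions (18.4%) both K20R peaks had a −log10 q under 5, whereas no weakened region had this in both WT libraries. The regions in neither class showed it in 6.80% in K20R and 6.46% in WT. Fold, width and q belong to the same peaks whose p chose the regions, so these values also describe them and carry no test.

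**Figure D1:**
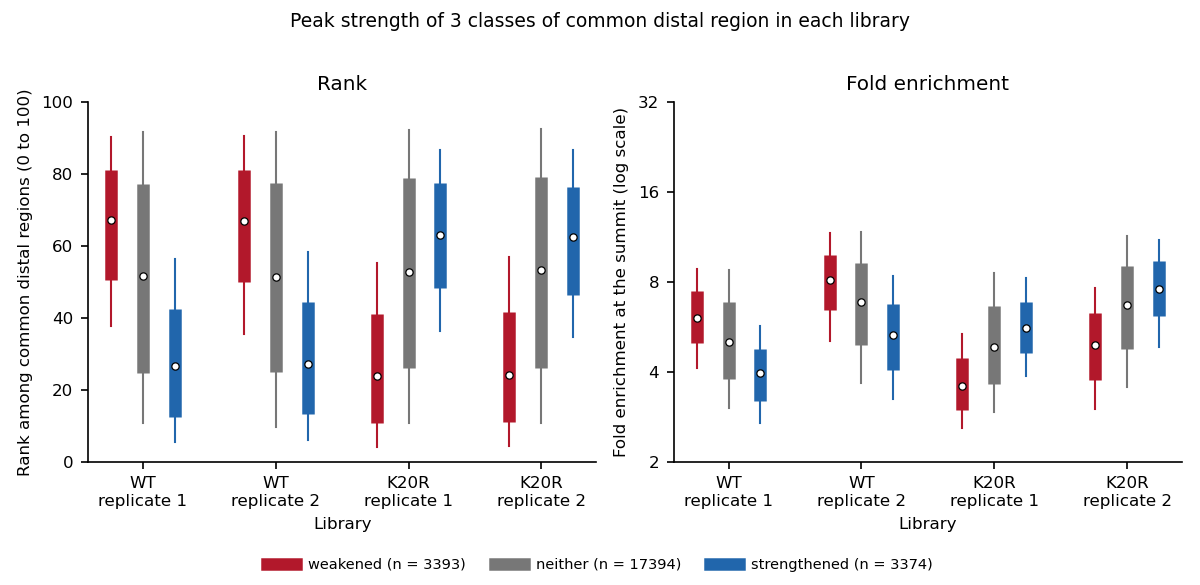
Rank (0 to 100) and summit fold enrichment (log scale) of weakened, strengthened and other common distal regions in the 4 libraries. White points are medians, thick bars interquartile ranges and thin lines the 10th to 90th percentile over regions; the weakened regions have median ranks of 67.1 and 66.9 in WT against 23.9 and 24.04 in K20R, by the rule that chose them.

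To see how far a drop carried over between libraries, common distal regions were chosen on the ranks of 1 WT and 1 K20R library. The drop there was at least 20 points, and the regions were then read in the other 2 libraries. Over the 4 ways to choose the pair, between 83.98% and 86.5% of the chosen regions were also lower in K20R in the libraries not used. Over all common distal regions, that share was 46.7% to 47.2%. A drop of at least 20 points was again found in 56.6% to 61.6% of them, against 15.7% to 17.1% of all regions. The median drop fell from 33.2 to 33.6 points in the libraries that chose the regions to 24.4 to 26.6 points in the others. The drop was thus smaller in libraries whose ranks had no part in the choice. Those libraries still had a part in the pool, since every common region has a peak in all 4. Between 70.5% and 73.9% of the chosen regions were weakened by the main rule, so these shares describe the same libraries and carry no test.

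The strongest losses were at regions that ranked near the top in WT and near the bottom in K20R. The region near Lrig3, a gene of a leucine-rich repeat membrane protein, ranked 95.7 and 96.97 in WT against 2.29 and 0.629 in K20R, and its summit fold was 7.52 and 8.71 in WT against 2.63 and 2.65 in K20R. A region in an intron near Pam, which encodes an enzyme that amidates peptide hormones, ranked 96.4 and 95.5 in WT against 4.84 and 0.226 in K20R (chr1:97996541-97997642). In both, the groups lay more than 90 points apart.

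The other regions with the 12 largest drops all had WT ranks of at least 90 and K20R ranks under 8. A region near Snap25, a SNARE protein of neurons, ranked 90.4 and 96.7 in WT against 0.713 and 0.822 in K20R. A region in an intron near Dgkg, a diacylglycerol kinase, ranked 96.5 and 97.5 in WT against 2.82 and 5.996 in K20R. A region near Mib1, a ubiquitin ligase that acts on Notch ligands, ranked 97.6 and 96.3 in WT against 2.29 and 4.80 in K20R. The remaining ones were nearest to Gpbp1, Efnb2 (ephrin-B2), Lhx1, Plpp3, Med9 (a Mediator subunit), Tnni1 and Tmem132e, with drops between 88.4 and 92.3 points. Efnb2 lay 528932 bp from its region, so the nearest gene is only a label there. Each of the 12 had a peak in both K20R libraries, with summit folds of 2.39 to 3.74.

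Some weakened regions stayed strong in K20R. The 8 with the highest mean WT rank all ranked above 98 in WT, and their drops ran from 23.6 to 82.6 points. A region near Lrrc55 ranked 99.8 and 99.9 in WT, but 32.9 and 1.59 in K20R. A region in an intron near Dapk2, a death-associated kinase, ranked 99.0 and 99.5 in WT against 75.2 and 76.0 in K20R. A region near Cntnap2, a neuronal adhesion gene, ranked 99.2 and 99.7 in WT against 20.4 and 63.9 in K20R, so that the 2 K20R libraries differed there by more than 40 points. A region near Ccn1, a matrix protein gene, holds a T-box and a FOX consensus and ranked 98.5 and 99.4 in WT against 54.2 and 62.5 in K20R. In all, 1193 weakened regions had a mean WT rank of at least 75, 1741 had a mean K20R rank under 25, and 293 had both.

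Weakened regions lay in introns more often than other distal regions. The strongest summit was in an intron of a protein-coding gene in 1562 of 3393 weakened regions (46.0%, Wilson 95% interval 44.4 to 47.7), against 39.2% (38.5 to 39.8) of the other common distal regions and 36.0% (34.4 to 37.7) of the strengthened ones. Exons held 4.01% (3.40 to 4.72) of the weakened and 7.21% (6.86 to 7.57) of the other regions, and intergenic sequence held 50.0% and 53.6%. The median distance to the nearest protein-coding TSS was 27804 bp for the weakened and 21880 bp for the other regions. It was 25527 bp for the strengthened ones, so a greater distance was not particular to weakened regions. A TSS of a noncoding transcript lay within 1000 bp of 2.95% (2.43 to 3.57) of weakened and 4.83% (4.55 to 5.13) of other regions. The intervals of the intron, exon and noncoding shares did not overlap between weakened and other regions. Regions are not replicates of a genotype, so intervals here and below cover counting error only.

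The weakened regions were poor in CpG and in very GC-rich sequence. Within 100 bp of the summit, the median number of CpG dinucleotides was 2 in weakened and 4 in other regions. The median GC content, at 53.2% and 53.7%, was nearly equal. The difference lay at the upper end: of the quintile of regions with the highest GC content, 8.59% were weakened, against 14.1% to 15.9% in each of the other quintiles. Repeat-masked bases made up a mean of 10.3% of the window in weakened, 12.4% in other and 17.9% in strengthened regions. The medians were 5.97%, 4.98% and 10.4%, so weakened regions stood below other regions by the mean but above them by the median.

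A full CTCF consensus was found less often in weakened regions than in the rest. Within 100 bp of the summit, on either strand, it was present in 148 weakened regions (4.36%, 3.72 to 5.10). Other common distal regions had it in 11.6% (11.2 to 12.04) and strengthened ones in 9.28%. When other regions were weighted to the GC content of the weakened ones, their share was 12.5%, and when weighted to the WT ranks, it was 12.3%. With 1 mismatch allowed, the consensus was in 17.9% of weakened and 32.5% of other regions. Of the 2556 regions with the full consensus, 5.79% were weakened and 12.2% strengthened, and their median ranks were 44.8 and 46.8 in WT against 50.6 and 50.8 in K20R. The median K20R minus WT difference was 3.78 points with the consensus and 0.89 points without it.

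The share with the CTCF consensus fell with the drop up to 40 points and was low and flat beyond. It was in 7.19% (5.94 to 8.68) of the 1377 regions with a drop of 20 to 30 points and in 4.28% (3.12 to 5.84) of the 865 with 30 to 40 points. Of the 1151 regions with a drop of at least 40 points, only 12 had it (1.04%, 0.597 to 1.81), with 1.02%, 1.38% and 0.813% at 40 to 50, 50 to 60 and 60 points or more and overlapping intervals. The region near Fignl1, shown above, had the largest drop of these outside chromosome 18. It ranked 71.6 and 69.0 in WT against 8.08 and 1.59 in K20R. CTCF binding itself was not measured in these libraries.

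Consensus sequences of factors of early development were more frequent around the strongest summit. That summit was a WT one in every weakened region but in 46.6% of those in neither class. The GATA consensus AGATAAG was in 146 weakened regions (4.30%, 3.67 to 5.04), in 1.85% (1.68 to 2.05) of other regions and in 1.24% of strengthened ones. For the T-box consensus TCACACCT, the shares were 2.03% (1.61 to 2.57), 0.953% (0.830 to 1.09) and 0.652%. The forkhead (FOX) consensus TGTTTAC was in 5.63% (4.90 to 6.46) of weakened and 2.84% (2.62 to 3.08) of other regions. For the TCF-LEF consensus CTTTGAT, it was 4.51% (3.86 to 5.26) and 2.80% (2.58 to 3.03). At least 1 of these 4 was present in 524 weakened regions (15.4%, 14.3 to 16.7), in 8.18% (7.82 to 8.56) of other regions and in 7.08% of strengthened ones. Weighting the other regions to the GC content of the members moved their shares to between 1.00% for T-box and 2.98% for FOX.

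The same letters read in reverse order, a sequence of equal composition, gave a smaller contrast. Reversed GATA letters were in 1.68% of weakened and 1.42% of other regions, and reversed TCF-LEF letters in 1.62% and 1.502%. Reversed T-box letters were in 1.41% and 0.949%, and reversed FOX letters in 3.89% and 2.60%, so for these 2 the control sequence was also somewhat more frequent in weakened regions. Of all regions with a GATA consensus, 27.5% were weakened and 7.91% strengthened. The regions with it had median ranks of 53.6 and 55.1 in WT against 40.1 and 40.7 in K20R. For T-box, 25.8% were weakened and 8.24% strengthened, with median ranks of 57.6 and 57.8 in WT against 45.8 and 43.4 in K20R. Thus a majority of the regions with either sequence were not weakened.

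Mef2d and Herc1 were picked for their drops, so their ranks only describe them. The T-box match near Mef2d, a gene of the MEF2 family of muscle and neuronal regulators, lay in a region that ranked 91.8 and 89.5 in WT against 4.07 and 23.1 in K20R. The GATA match near Herc1 lay in a region that ranked 92.4 and 94.6 in WT against 6.75 and 10.0 in K20R. Both lay 55430 bp from the TSS that names them.

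Of the further consensus sequences, 4 were more frequent in weakened regions by at least 2 percentage points. The ZIC letters CAGCAGG were in 23.2% (21.8 to 24.6) of weakened and 16.2% (15.7 to 16.7) of other regions. The E-box CAGCTG, bound by many bHLH factors, was in 21.9% (20.6 to 23.4) and 16.1% (15.6 to 16.6). The MEIS letters TGACAG were in 18.6% (17.4 to 20.0) and 13.1% (12.6 to 13.6). The letters GGATTA, bound by OTX and Goosecoid, were in 8.69% (7.79 to 9.69) and 5.66% (5.35 to 5.98), but their reverse was also in 7.31% and 5.35%. In the other direction stood the E-box CACCTG of Snail and ZEB factors, in 18.7% (17.5 to 20.1) and 21.3% (20.8 to 21.9), and the ETS letters CCGGAAG in 1.56% (1.20 to 2.04) and 2.63% (2.42 to 2.86). The ETS letters hold a CpG, and their reverse, which holds none, was in 4.24% and 3.97%. The part of CpG content in this was not tested. These searches are not fully separate. A T-box match followed by G holds CACCTG, and a CTCF match can hold both CACCTG and the ZIC letters, as the one near Fignl1 does. In regions without a CTCF consensus, a split made after the values were seen, CACCTG was in 18.3% (17.0 to 19.7) of weakened and 20.2% (19.6 to 20.8) of other regions, with intervals that just overlapped. The ZIC letters were in 22.7% (21.2 to 24.1) and 15.1% (14.6 to 15.6) of them.

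The remaining consensus sequences differed less. AP-1 (TGAGTCA) was in 6.69% of weakened and 5.00% of other regions, TEAD (ACATTCC) in 4.98% and 3.62%, and RBPJ (GTGGGAA) in 6.51% and 5.08%. The octamer ATGCAAAT of OCT factors was in 3.09% (2.56 to 3.73) and 2.30% (2.102 to 2.51), while SOX (ACAATGG) was in 3.98% (3.37 to 4.69) and 3.32% (3.09 to 3.57). The intervals of SOX overlapped. Those of FOXH1 (AATCCACA), ESRRB (CAAGGTCA), KLF (GGGTGTGG), CDX (TTTATNG), NFY (CCAATCA), TFAP2 (GCCNNNGGC) and GRHL (AACCGGTT) also overlapped between weakened and other regions. For the HAND-MESP E-box CATCTG, the shares were 17.4% (16.1 to 18.7) and 15.5% (15.0 to 15.96). A match is a description of the letters and not a bound site.

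**Figure D2:**
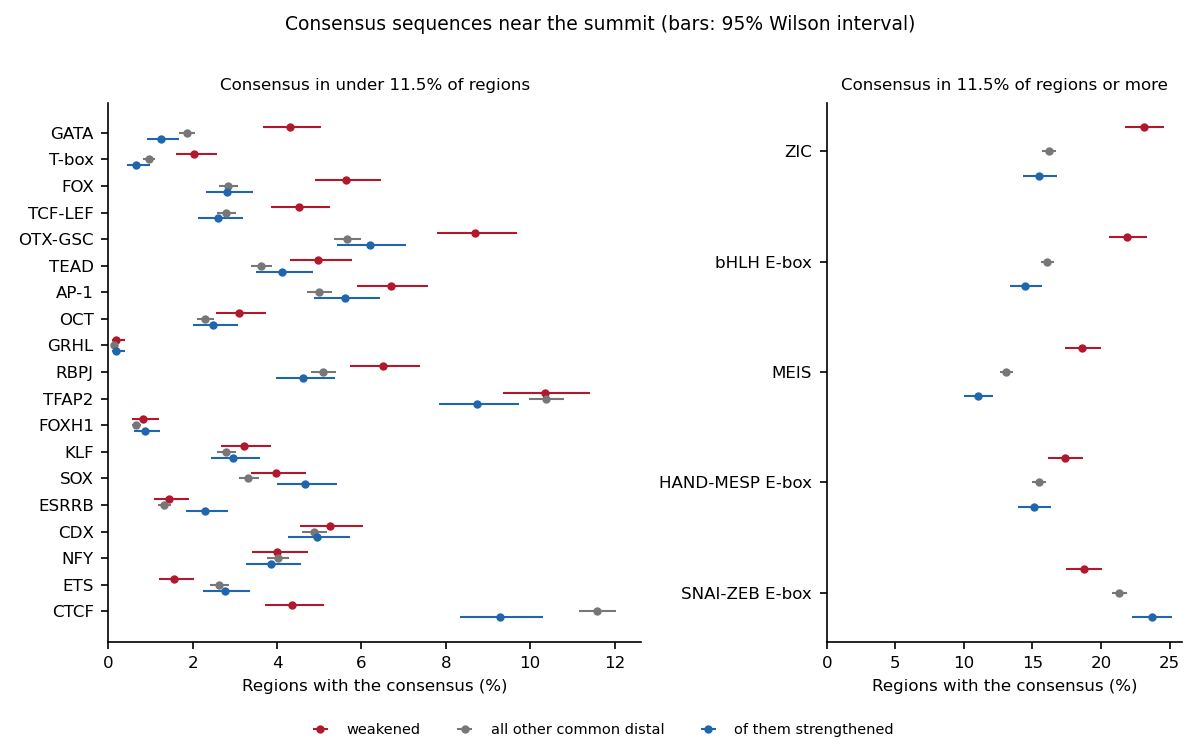
Share of regions with each consensus within 100 bp of the summit (%), for weakened, all other and, among the latter, strengthened common distal regions, with Wilson 95% intervals as bars. GATA stands at 4.30% against 1.85% of other regions at one end, and CTCF at 4.36% against 11.6% at the other.

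Across the size of the drop, the frequent sequences did not fall as CTCF did. The FOX consensus was in 4.65% (3.66 to 5.89) of regions with a drop of 20 to 30 points. It was in 4.97% (3.71 to 6.63) at 30 to 40 points and in 3.86% (2.49 to 5.95) at 40 to 50 points. At 50 to 60 points it was in 10.3% (7.34 to 14.4), and at 60 points or more in 9.49% (6.90 to 12.9). The GATA consensus rose from 3.34% (2.51 to 4.43) to 7.93% (5.34 to 11.6) at 50 to 60 points and stood at 3.79% (2.27 to 6.27) above that. For T-box, the shares lay between 1.39% and 3.05% with overlapping intervals.

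**Figure D3:**
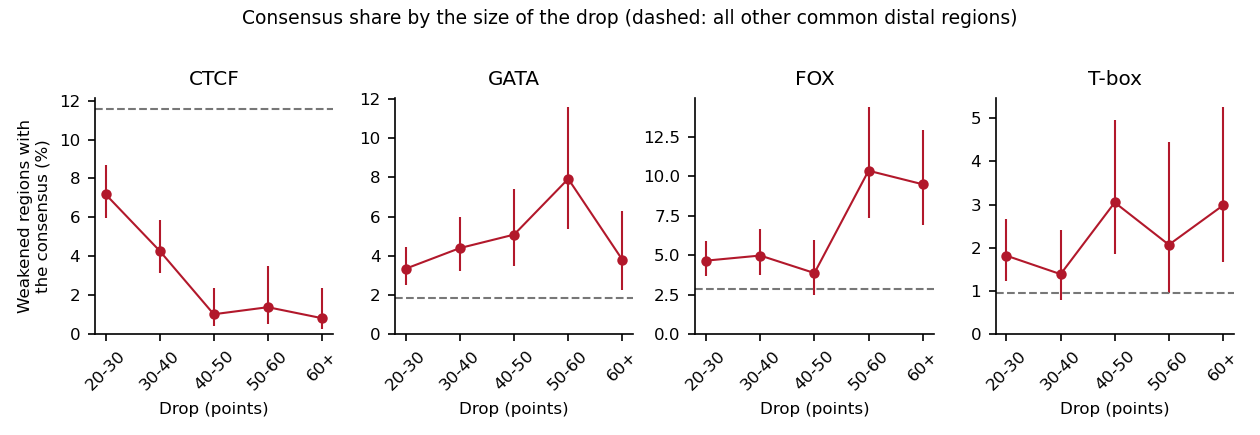
Share of weakened regions with a CTCF, GATA, FOX or T-box consensus (%) by the size of the drop in rank points, with Wilson 95% intervals; the dashed lines give the share in all other common distal regions. The CTCF share runs from 7.19% at 20 to 30 points to 0.813% at 60 points or more.

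The genes nearest to the weakened regions were then read by 10 lists of genes known from early development. The share of a list's distal regions that were weakened was compared with the 14% of all common distal regions. The FGF and ERK list stood highest, with 27 of 96 regions (28.1%, 20.1 to 37.8) weakened and 6.25% strengthened. The Wnt list followed with 28 of 104 (26.9%, 19.3 to 36.2) and 10.6% strengthened, and the early mesoderm and primitive streak list with 17 of 76 (22.4%, 14.5 to 32.9) and 7.89% strengthened. The median K20R minus WT difference over the regions of these lists was -5.48, -3.71 and -3.22 points, against 1.18 points over all regions. Regions near 1 gene are not independent of each other.

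For the other lists, the interval held 14%. The endoderm list had 10 of 47 regions weakened (21.3%) and 5 strengthened (10.6%), and the cardiac list had 12 of 59 weakened (20.3%) and 5 strengthened (8.47%). The pluripotency list had 16 of 88 weakened (18.2%) and 13 strengthened (14.8%), and the endothelial and blood list had 9 of each among 51 (17.6%). The Nodal, activin and BMP list had 13 of 93 weakened (14%) and 14 strengthened (15.1%). The neuroectoderm list had 19 of 140 weakened (13.6%) and 14 strengthened (10.0%), and the fibroblast and matrix list had 5 of 37 weakened (13.5%) and 1 strengthened (2.70%). The regions named below from these 7 lists are the largest drops by the rule and do not speak for their list. The part of cell composition in these shares was not tested.

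**Figure D4:**
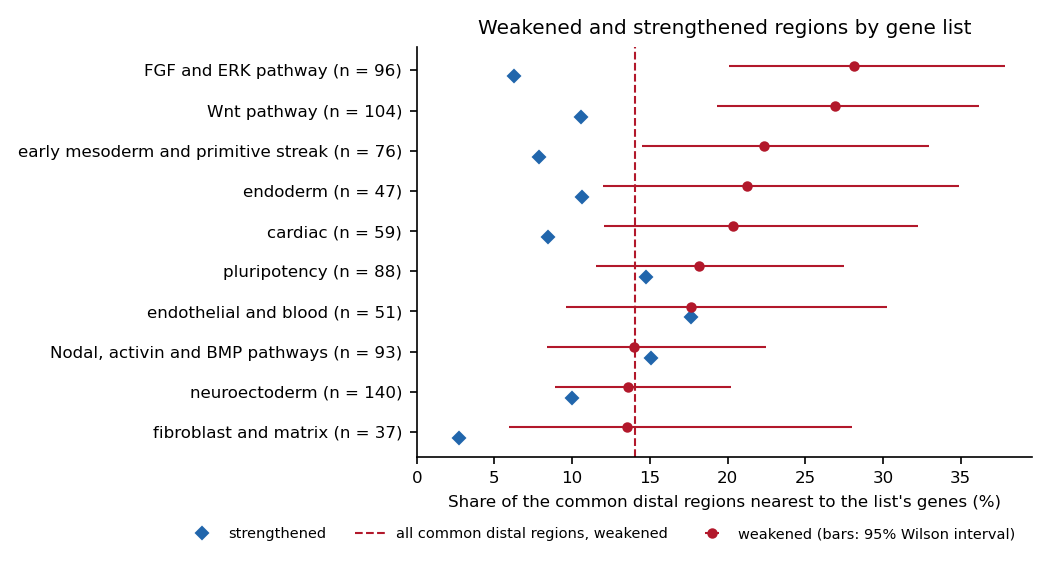
Share of common distal regions that were weakened (red points with Wilson 95% intervals) or strengthened (blue diamonds) among regions nearest to the genes of each list (%), with the share of weakened regions over all common distal regions as a dashed line. The FGF and ERK, Wnt and early mesoderm lists have intervals above 14%.

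In the FGF and ERK list, 12 of the 19 genes with common distal regions had at least 1 weakened region. Over all genes with such regions, it was 2644 of 10164. These 19 genes had 96 regions, beside 24161 over all 10164 genes, and more regions give more chances of a weakened one. Spred2, which restrains RAF activation, had 6 of 11 regions weakened and none strengthened, with ranks of 50.8 to 95.7 in WT and 8.08 to 57.6 in K20R. Dusp6, a phosphatase of ERK, had 4 of 7 weakened and 1 strengthened, with ranks of 54.4 to 90.4 in WT and 9.32 to 52.9 in K20R. The Sprouty inhibitor Spry2 had 3 of 9 weakened, Spry1 had 2 of 4, and Spry4 had 2 of 6 weakened and 1 strengthened. The inhibitor Spred1 had 0 of 3 weakened and 1 strengthened. Of the receptors, Fgfr1 had 2 of 10 weakened, Fgfr2 had 2 of 6 weakened, each with 1 strengthened, and Fgfr3 had 0 of 4. The target gene Etv5 had 2 of 9, and Etv4 had 0 of 2.

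The region of this list with the largest drop lay 14152 bp from the TSS of Spry1, a Sprouty inhibitor (chr3:37653991-37654714). It ranked 95.2 and 90.6 in WT against 17.1 and 5.46 in K20R. A region in an intron near the receptor gene Fgfr2 ranked 77.9 and 88.5 in WT against 8.08 and 12.3 in K20R. Another, near the phosphatase gene Dusp4, ranked 92.2 and 92.0 in WT but 8.08 and 55.9 in K20R, so its drop rests more on 1 K20R library. In an intron near Spred2, the region with the largest drop (chr11:19986209-19987801) ranked 79.96 and 80.8 in WT against 14.1 and 8.50 in K20R.

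In the Wnt list, 18 of the 26 genes with common distal regions had at least 1 weakened region, and 8 had at least 1 strengthened region. Over all 10164 genes, these counts were 2644 and 2657, but the 26 Wnt genes had 104 regions, which is more for each gene. Of the Frizzled receptor genes, Fzd7 had 3 of 8 regions weakened and 1 strengthened, Fzd10 had 2 of 6, Fzd8 had 2 of 3, Fzd2 had 1 of 3, Fzd4 had 1 of 2 and Fzd1 had 0 of 3. The effector Lef1 had 3 of 5 and Tcf7 had 0 of 4, while Tcf7l1 and Tcf7l2 had 2 weakened and 2 strengthened regions each. The feedback gene Axin2 had 2 of 7 and Nkd1 had 0 of 4. Of the secreted inhibitor Sfrp2, 1 region was weakened and 2 were strengthened, and Wnt8a and Sp8 had 0 weakened and 1 strengthened region each. The single distal region of the inhibitor Dkk1 and that of the co-receptor Lrp5 were weakened.

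The region with the largest drop of the Wnt list lay 11359 bp upstream of Fzd7 (chr1:59470460-59471424). It ranked 79.6 and 78.3 in WT against 0.366 and 0.465 in K20R, which is within 2 points in each genotype. A region near Fzd8 on chromosome 18, which holds a FOX consensus, ranked 80.9 and 84.5 in WT against 4.84 and 5.996 in K20R. The FOX-bearing region near Wnt11, a ligand gene, ranked 79.0 and 80.7 in WT against 8.08 and 13.2 in K20R. In an intron near Tcf7l2, a region ranked 86.9 and 88.2 in WT against 32.9 and 7.92 in K20R.

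Of the 25 early mesoderm genes, which had 76 common distal regions, 14 had at least 1 weakened region, beside 2644 of 10164 genes overall. They were T, Mesp1, Nodal, Wnt3, Fgf8, Lhx1, Evx1, Snai1, Hand1, Twist1, Dll1, Pdgfra, Lefty1 and Cyp26a1. Nodal, Fgf8, Snai1, T and Pdgfra also had 1 strengthened region each. None was weakened near Eomes (4 regions), Foxc1 (6), Cdx2, Gsc, Lefty2 (3 each), Tbx6 or 5 further genes of the list. The region with the largest drop lay 67427 bp upstream of Lhx1, a LIM-homeobox factor of the streak and its derivatives (chr11:84592569-84593555). It ranked 97.3 and 94.2 in WT against 6.68 and 4.20 in K20R. A region 5255 bp from Snai1, a repressor that drives the epithelial-mesenchymal transition, ranked 87.0 and 86.3 in WT against 1.86 and 0.0206 in K20R (chr2:167542938-167544231). Here too the 2 libraries of each genotype lay within 4 points of each other.

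A region 2066 bp upstream of the receptor gene Pdgfra ranked 86.9 and 84.8 in WT against 17.4 and 11.7 in K20R. A region 18710 bp upstream of T, the gene of Brachyury, ranked 87.3 and 82.5 in WT against 35.0 and 15.8 in K20R (chr17:8415448-8416183). T had 1 of 5 distal regions weakened and 1 strengthened, and Pdgfra 1 of 4 weakened and 1 strengthened, so the regions around 1 gene did not all change one way.

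In the cardiac list, 9 of 18 genes had at least 1 weakened region and 5 had at least 1 strengthened region. Over all 10164 genes, these counts were 2644 and 2657, but the 18 cardiac genes had 59 regions, which is more for each gene. Ryr2, the calcium release channel of heart muscle, had 4 of 7 regions weakened and none strengthened. The strongest loss of the list was 4456 bp upstream of Tnni1, a troponin I gene of the embryonic heart and slow muscle, where ranks were 93.6 and 96.2 in WT against 7.15 and 5.52 in K20R (chr1:135794293-135795396). The only distal region of Actc1, cardiac actin, lay 4742 bp upstream, held the GATA consensus shown above and ranked 94.1 and 88.3 in WT against 31.7 and 27.1 in K20R. In an intron near Ryr2, a region ranked 95.6 and 96.8 in WT against 28.8 and 24.9 in K20R. Hand2, Mef2c and Nkx2-5, which encode cardiac regulators, had 1 weakened region each, as had Myl4 and Myl7, which also had 1 strengthened region each. None was weakened near Tbx5 (4 regions), Isl1 (5), Hcn4 (3) and Tnnt2 (2), of which the last 3 had 1 strengthened region each, nor near Tbx20, Gata6, Smarcd3, Myl3 or Popdc2.

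Endoderm and blood vessel genes had single cases with clear separation. Krt18, a keratin of early epithelia, had 3 of 4 regions weakened, the largest with ranks of 87.2 and 76.7 in WT against 13.3 and 11.7 in K20R. Near Foxa2, a forkhead factor of endoderm and node, the FOX-bearing region ranked 72.9 and 72.8 in WT against 4.84 and 10.0 in K20R. A region near Cer1, a secreted antagonist of Nodal and BMP, ranked 72.1 and 62.4 in WT against 16.2 and 30.2 in K20R. The region with the largest drop near a gene of the endothelial and blood list lay near Runx1, a regulator of blood formation, with ranks of 63.0 and 74.5 in WT against 15.0 and 14.8 in K20R.

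Near the VEGF receptor gene Flt1, a region ranked 87.1 and 81.1 in WT against 35.8 and 34.7 in K20R. The 2 regions with the largest drops near Cdh5, VE-cadherin, had ranks of 60.4 and 63.7 and of 51.1 and 62.2 in WT, and of 22.9 and 16.6 and of 19.3 and 10.0 in K20R. Cdh5 had 3 of 11 regions weakened and 2 strengthened.

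In the pluripotency list, weakened and strengthened regions were about equally frequent. Sall4, a zinc finger factor of stem cells and early embryos, had 4 of 8 regions weakened and none strengthened, and its region with the largest drop had ranks of 69.4 and 68.2 in WT but of 0.331 and 0.822 in K20R. The TCF-LEF-bearing region near Tbx3 went from 92.3 and 91.2 to 18.2 and 12.3. Near Prdm14, a region went from 80.6 and 82.2 to 15.3 and 19.2. A region 299718 bp downstream of Sox2 ranked 95.2 and 93.2 in WT against 55.1 and 17.3 in K20R, while Sox2 had 2 of 14 regions weakened and 3 strengthened. Strengthened regions without a weakened one were found near Esrrb (2 of 5), Dppa5a (2 of 2), Klf2 (1 of 2) and Zfp42 (1 of 1).

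Of the neuroectoderm genes, Msx1 had 3 of 6 regions weakened, and Irx3 had 2 of 7 weakened and 2 strengthened. The largest loss near Irx3 went from 88.1 and 84.3 to 9.58 and 5.38, and that near Msx1, with a GATA match at the edge of the window, from 85.1 and 82.1 to 21.5 and 30.8. A region near Six3, a forebrain factor, went from 53.6 and 49.5 to 1.23 and 3.27. For the Nodal and BMP list, the largest losses were near Smad7, an inhibitory SMAD (91.0 and 82.3 in WT, but 16.2 and 32.2 in K20R), and Id2, a BMP target (86.4 and 89.8 in WT, but 11.97 and 40.7 in K20R). Smad7 had 2 of 18 regions weakened and 4 strengthened, and Id2 had 3 of 8 weakened and 1 strengthened. Of the matrix genes, Col1a1 had 3 of 5 regions weakened, the largest from 86.0 and 71.3 to 13.2 and 14.1. A region near Thy1 went from 77.3 and 68.7 to 60.2 and 14.8, and one near Fbln1 from 72.4 and 63.4 to 26.3 and 31.6.

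**Figure D5:**
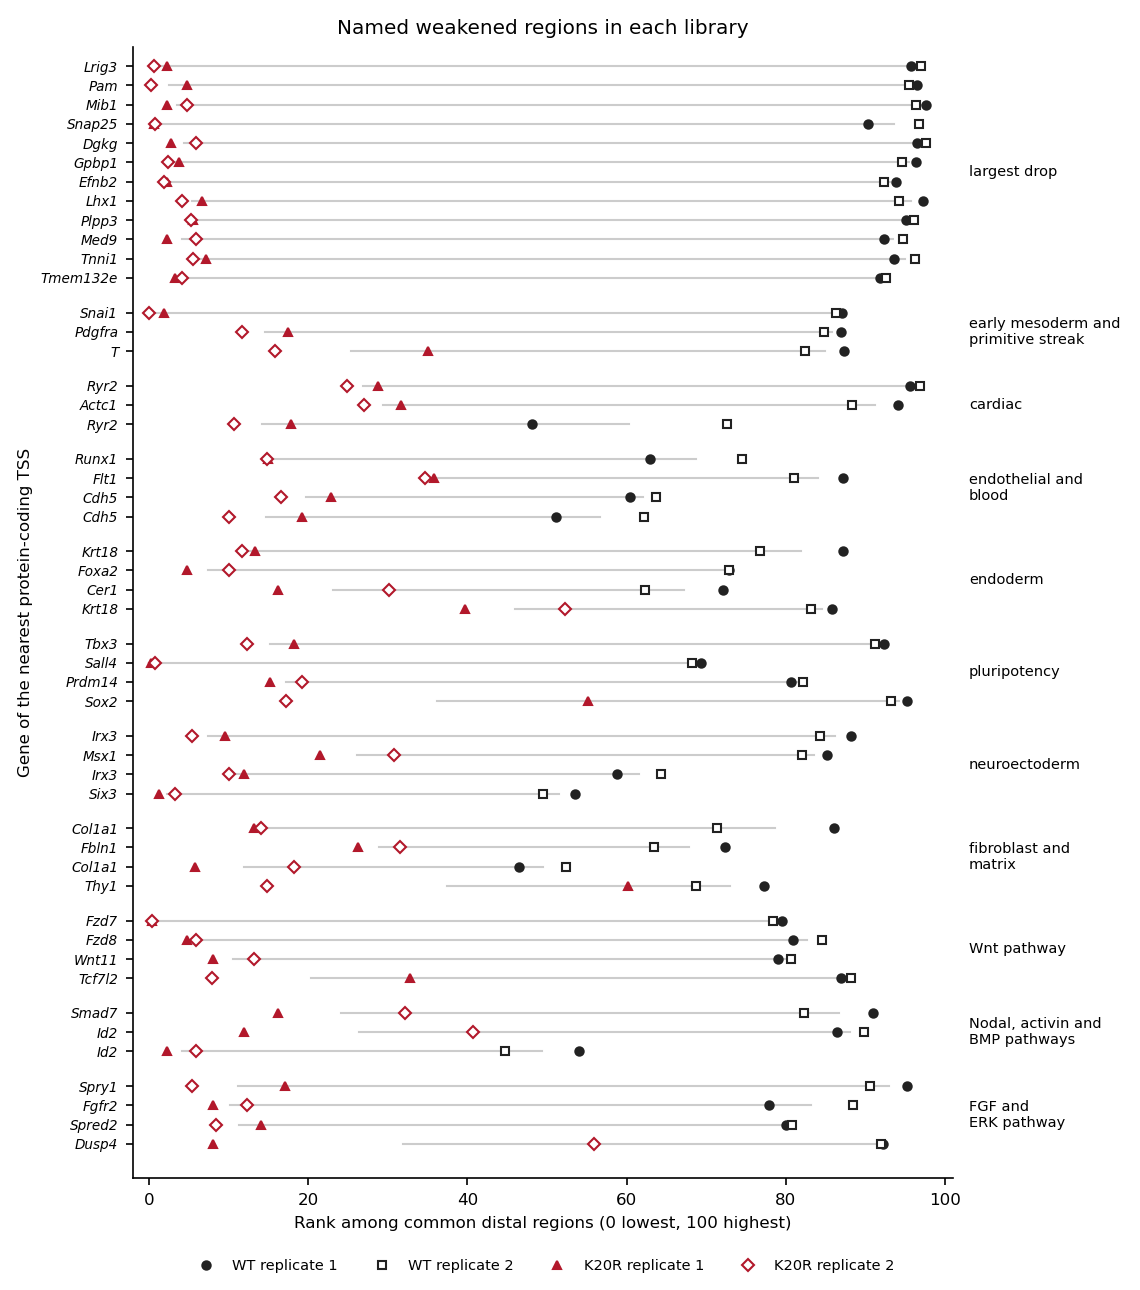
Rank of named weakened regions in each of the 4 libraries (x axis, 0 to 100), for the 12 largest drops and for up to 4 regions of each gene list with the largest drops, with grey lines between the genotype means; the Lhx1 and Tnni1 regions, which are in both, are drawn once. In most rows the 2 K20R points lie close together, and Dusp4 and Thy1 are rows where they do not.

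Weakened regions were spread over the genome, with a minority in groups. They were nearest to 2644 of the 10164 genes with a common distal region, 2098 of them with 1 weakened region and 395 with 2. Their share was between 11.2% (chromosome 8, where 22.5% were strengthened) and 16.5% (chromosome 18) of the common distal regions of a chromosome. Within 50000 bp of another weakened region lay 29.9% (28.4 to 31.5) of them, against 26.9% (26.3 to 27.6) of the regions in neither class and 24.01% (22.6 to 25.5) of strengthened ones. The strengthened regions lay as close to one another, with 31.4% (29.9 to 33.0) within that distance of another strengthened region. A region with peaks in both WT libraries and in no K20R library lay within that distance of 49.9% (48.2 to 51.6) of weakened regions, 44.5% (43.8 to 45.2) of those in neither class and 41.7% (40.05 to 43.4) of strengthened ones. For regions with peaks in K20R alone, the shares were 20.2%, 19.8% and 20.3%.

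On the whole, the distal regions around a weakened one had no drop of their own. Over the 3345 weakened regions with at least 5 other common distal regions within 1000000 bp, the median K20R minus WT difference of these neighbours had a median of 0.78 points, beside 0.95 points for the regions in neither class. The neighbours' median was at or below -20 points for 12 weakened regions, among them the 4 near Pam, which had no other common distal region nearest to it.

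Chains of weakened regions, each within 50000 bp of the next, numbered 432 and held 1015 regions, and 29 of them held 4 or more. The chain at Rbpms, which encodes an RNA-binding protein of heart and smooth muscle, held 6 of the 11 common distal regions between its ends (chr8:33905829-33993505), and 2 of the others were strengthened. Over all 18 regions nearest to Rbpms, 6 were weakened and 4 strengthened. The ranks of the 6 ran from 74.0 to 90.1 in WT and from 16.3 to 68.1 in K20R, with the largest drop of 64.2 points farthest upstream of the gene. A second chain of 6 of 11 regions ran from Apol8 over Myh9, a nonmuscle myosin gene, to Txn2 (chr15:77775501-77912942). Its median rank was 89.5 in WT and 47.2 in K20R. Of 7 chains of 5, the shortest lay at Cxxc5 on chromosome 18, with 5 of 6 regions and a median drop of 45.3 points, and the one with the largest median drop, 64.2 points, lay at Cryaa and Sik1 with 5 of 5 (chr17:31753335-31806606). The latter was picked after its value was seen.

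By gene, the most weakened regions were near Zfp36l1, an RNA-binding protein that promotes mRNA decay. It had 9 of 18 regions weakened and 1 strengthened, with drops of 25.1 to 76.3 points. This gene and those that follow were picked after their counts were seen. Med13l, of the Mediator kinase module, had 6 of 19, Dnmt3a, a DNA methyltransferase, 5 of 12, and Hes1, a target of Notch, 5 of 15. Near Pam 4 of 4, near the netrin gene Ntn1 4 of 5 and near the Wnt modulator Dact1 4 of 5 regions were weakened.

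The promoters of the nearest genes had rank differences near 0 whatever the number of weakened regions. For 2172 genes with at least 1 weakened distal region and a promoter peak in all libraries, the median K20R minus WT rank difference of the promoter, ranked among promoters, was 0.06 points. For the 134 genes with 3 or more it was -0.31, and for the 5563 genes with none it was 0.21. Both K20R ranks of the promoter lay below both WT ranks in 22.4% of genes with at least 1 weakened region and in 22.4% of those with none.

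The place of the summit within a region differed more between libraries for weakened regions. The mean WT and mean K20R summit lay within 50 bp of each other in 49.3% of weakened regions and in 62.6% of those in neither class, and the 4 summits spread over a median of 125 bp and 82 bp. In all 3393 weakened regions, the strongest summit came from a WT library, which follows largely from the choice. This held for 46.6% of regions in neither class and 0.119% of strengthened ones, so windows were centred unlike between classes. With WT summits in every region, the differences were 1.04 (T-box), 2.43 (GATA) and -7.03 points (CTCF). With K20R summits, they were 0.728, 1.72 and -6.62 points. The other consensus sequences were not recomputed this way.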

How the data were processed

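The peak lists of 2 WT and 2 K20R ATAC-seq libraries were used, with the groups as the labels give them. Per the study's methods and the submitters' processing notes, reads were trimmed with Trim Galore and aligned to mm10 with Bowtie2. Low-quality reads, duplicates and blacklisted reads were removed, and peaks were called with MACS2. In the deposited lists, the authors give each peak a fold enrichment (a ratio of the summit pileup to the local background), a −log10 p and a −log10 q. Peak calling was stated to be at default settings, but the deposited lists reach a p of 0.00948 to 0.00996, and hold between 50.5% and 60.8% of their peak numbers, so peaks were removed by a rule that is not given in the sources used here. Read depth is unknown.

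Peaks were merged where they shared at least 1 bp. The highest −log10 p of a region was ranked anew in each library over all common distal autosomal regions, with ties averaged. TSSs, exons and introns came from GENCODE vM21 basic (mm10), and sequence from the RefSeq copy of the same build, in which the largest peak end was at 0.999 of its chromosome's length. Introns and exons were called at the strongest summit. Consensus sequences were searched on both strands within 100 bp of it, and 12 letters were used for CTCF. Python 3.11.15, pandas 2.3.3, scipy 1.17.1 and pysam 0.24.0 were used, and the selection and searches were tested on simulated data.

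The weakened regions were selected on the ranks of these same libraries, so no test was made on ranks, folds or widths, and shares are given with Wilson 95% intervals. With 2 libraries against 2, an exact two-sided permutation test cannot go below a p of 0.333. The regions, gene lists and consensus sequences were chosen with earlier results of these data known. Named regions were the 12 largest drops, the 8 highest WT ranks, up to 4 of each list with the largest drops, 2 to each side of the threshold and the 3 chains with the most regions, ties going to the shortest. One region that this rule names is not reported here. Alternatives to the ranking, the thresholds, the peaks, the windows and the libraries were tried.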

Additional observations from a re-analysis of the deposited data

How the results depend on the processing

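All 93 values recomputed under an alternative kept their direction. The number of regions and the intron share are positive by construction, so those among the 93 could not have reversed. Of the 93, 77 stayed within the counting interval of the main value (for the number of regions, within 1.5 times). The number of weakened regions, 3393, was 5162 at a drop of at least 10 points and 2016 at 30 points. With one library left out it lay between 3646 and 3843, and between 79.0% and 82.0% of the regions then selected were members. Ranking the summit fold gave 3106 regions, of which 2644 were members.

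The deficit of the CTCF consensus, -7.23 percentage points, was -5.64 with ranks of the fold, -5.55 at a drop of 10 points, -8.89 at 30 points, -5.63 with only peaks of a −log10 q of at least 5, -6.21 in a 50 bp window and -14.5 with 1 mismatch. With one library left out, it lay between -6.71 and -4.996, the latter without K20R replicate 2. The excess of the T-box consensus, 1.08 points, was 1.58 with the q filter, but 0.721 in a 50 bp window and 0.728 around the strongest K20R summit. With one library left out, it lay between 0.821 and 0.968. The excess of GATA, 2.45 points, was 1.46 in a 50 bp window and 1.72 in windows around the strongest K20R summit. The GC difference, -0.50 points, was -0.995 with ranks of the fold and with the q filter. The cause of these shifts was not tested.

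With the replicate block, in which K20R was compared with WT within each replicate number, 3443 regions were selected, and the CTCF deficit was -6.99 points. All members were among them, which the member rule makes certain. The deviations of the same-numbered libraries correlated at 0.031 over 24161 regions, so the ranks showed no pairing by number. That value cannot tell whether same-numbered libraries were prepared together. Windows around the WT or K20R summit, weights by WT rank and the removal of regions in lowered neighbourhoods were added after seeing the data. Unknown depth, 2 libraries a genotype and removed peaks limit what these lists can show. A region that lost its peak in a K20R library is not among the common ones, and its loss was not compared with theirs.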

Other observations

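Words of 7 letters were counted in all windows, and those in at least 3% of weakened regions were ordered by their share over that in other regions at equal GC content. These words were picked after their values were seen. CTAATGA led with 4.01% of weakened and 1.82% of other regions (2.197 times), ahead of the GATA letters AGATAAG with 4.30% and 1.97% (2.18 times). CATTAGC had 4.01% and 1.87%. CTAATTA had 3.18% and 1.53%. These 3 hold TAAT or its complement ATTA, the core bound by many homeodomain factors. The strengthened regions had CTAATGA in 2.05%. GTGTGAA, which shares letters with the T-box consensus, was in 5.42% and 2.79%.

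On the X chromosome, which the rule leaves out, 42 of 387 common distal regions (10.9%, Wilson 95% interval 8.13 to 14.3) met the conditions for weakened regions and 43 (11.1%) those for strengthened ones, when ranked together with the autosomes.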
